A study of Mus musculus with 9 samples.

Results

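The complement genes C1qa, C1qb, C1qc, C3, C4b, C3ar1, C5ar1, Cfb and Serping1 were followed in mouse thalamus on day 7 of a photothrombotic stroke study, a model that closes vessels with light and a photosensitive dye. They were found by symbol in the authors' tables of listed genes, where all 9 have 1 identifier each, among 4277 genes in all. The study compared 3 groups of 3 thalamus samples from mice labelled WT, called sham, stroke and mmpp. The series description gives the strain as C57/BL and gives a melanin nanozyme, that is, melanin particles that act like an enzyme, as the injected agent. The labels do not spell out mmpp, do not say which groups were injected or whether animals were pooled, and give no age or sex. Values below are the authors' group means in TPM (a share of all transcripts, scaled for gene length), so levels can be set side by side between genes. The tables analysed here hold no value per sample, and the count table that the labels name was not analysed here, so depth and the spread between samples are not given.

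Complement is a cascade of plasma and tissue proteins that tags targets for uptake and calls in phagocytes. C1q, assembled from the A, B and C chains that C1qa, C1qb and C1qc encode, recognises targets and carries the proteases C1r and C1s, which cleave C4 and C2 to form an enzyme that splits C3. Factor B, encoded by Cfb, serves the alternative pathway that amplifies C3 cleavage, and C1 inhibitor, encoded by Serping1, blocks C1r and C1s. The fragments C3a and C5a signal through the receptors encoded by C3ar1 and C5ar1. In brain, microglia are the main source of C1q, and C1q and C3 can mark synapses for removal by microglia.

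The C1q genes are direct neighbours, in the order C1qb, C1qc, C1qa in the RefSeq annotation of GRCm38.p6. RefSeq promoter sequences of that build, from 250 bases before to 50 bases after the start of a gene, were matched for 5 of the 9 genes, C1qb, C1qc, C3, C3ar1 and C5ar1. The C1qb and C1qc promoters are shown because these neighbours rose together, with capitals marking GAGGAA, the core that the myeloid factor PU.1 binds, or its reverse complement TTCCTC. The C3ar1 promoter is shown because C3ar1 was the member listed in both comparisons. Its capitals mark, on the reverse strand, a pattern of NF-kappa B sites, GGG followed by any 5 bases and CC.
C1qb, chr4:136886151-136886450, minus strand: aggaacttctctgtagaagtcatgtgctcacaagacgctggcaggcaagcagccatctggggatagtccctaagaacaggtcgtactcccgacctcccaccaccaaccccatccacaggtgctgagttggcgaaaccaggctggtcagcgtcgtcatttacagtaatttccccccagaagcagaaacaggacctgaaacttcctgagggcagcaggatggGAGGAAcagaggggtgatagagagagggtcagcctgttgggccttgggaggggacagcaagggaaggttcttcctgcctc
C1qc, chr4:136892865-136893164, minus strand: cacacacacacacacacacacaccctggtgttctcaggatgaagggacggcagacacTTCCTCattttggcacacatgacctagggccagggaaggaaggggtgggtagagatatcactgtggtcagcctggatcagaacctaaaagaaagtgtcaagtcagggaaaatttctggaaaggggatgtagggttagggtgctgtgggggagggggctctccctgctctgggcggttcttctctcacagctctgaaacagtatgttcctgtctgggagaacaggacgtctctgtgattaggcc
C3ar1, chr6:122856108-122856407, minus strand: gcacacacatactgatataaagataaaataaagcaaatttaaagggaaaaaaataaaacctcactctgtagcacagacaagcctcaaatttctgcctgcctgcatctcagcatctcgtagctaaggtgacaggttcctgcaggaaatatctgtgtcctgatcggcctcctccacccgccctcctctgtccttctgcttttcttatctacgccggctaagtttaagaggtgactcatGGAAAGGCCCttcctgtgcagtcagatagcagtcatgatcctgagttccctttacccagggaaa
GAGGAA on either strand was in the promoters of C1qb and C1qc and in 28.3% of all 32851 promoters of this length. It began 30 bases before the start in C1qb and, on the reverse strand, 193 bases before the start in C1qc. The NF-kappa B pattern was in the promoters of C1qb, C1qc, C3 and C3ar1 and in 50.8% of all promoters. In C1qb, C1qc and C3 some matches of this pattern overlap each other on the same or the opposite strand. A STAT pattern (TTC, any 3 bases, GAA) and an IRF pattern (GAAA, any 2 bases, GAAA), on either strand, were in none of the 5 promoters and in 8.30% and 3.44% of all promoters. These matches describe letters in a window, and no binding was measured.

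The comparison of stroke with sham asks how thalamic gene expression differed after the injury. All 9 complement genes rose, with an authors' q-value under 0.05 for each in the authors' deposited table, beside 9.67% of 20804 genes adjusted that rose in the same table. The median log2 fold change of the 9 genes was 3.94, beside 2.44 for all genes that rose. These 9 genes were chosen with earlier results of these data known, so the count and the median describe them and are no test. Fold changes are given here for 3 sets by role, the last of which joins components and an inhibitor. The C1q chains rose 15.4-fold to 18.7-fold, the anaphylatoxin receptors 43.8-fold to 46.6-fold, and C3, C4b, Cfb and Serping1 2.09-fold to 4.54-fold. The differences between these ranges were not tested.

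The C1q genes had the highest levels. C1qa (ENSMUSG00000036887) was at 284.9 TPM in sham and 5321 TPM after stroke, a rise of 18.7-fold (q = 6.57e-16, authors' deposited table). C1qb (ENSMUSG00000036905) was at 274.1 TPM in sham and 4220 TPM after stroke, a rise of 15.4-fold (q = 1.05e-14, authors' deposited table). C1qc (ENSMUSG00000036896) was at 198.4 TPM in sham and 3264 TPM after stroke, a rise of 16.5-fold (q = 1.25e-18, authors' deposited table). By stroke mean, C1qa stood at rank 5, C1qb at rank 7 and C1qc at rank 10 of the 4071 genes listed for this comparison. By sham mean the same genes stood at ranks 133, 139 and 187. In sham they made up 0.0757% of the summed TPM of all genes, and in stroke 1.28%. The chains kept the order C1qa, C1qb, C1qc in both groups. The TPM ratio of C1qa to C1qb was 1.04 in sham and 1.26 in stroke, that of C1qa to C1qc 1.44 and 1.63, and that of C1qb to C1qc 1.38 and 1.29. How far these ratios vary between samples was not analysed here.

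**Figure D1:**
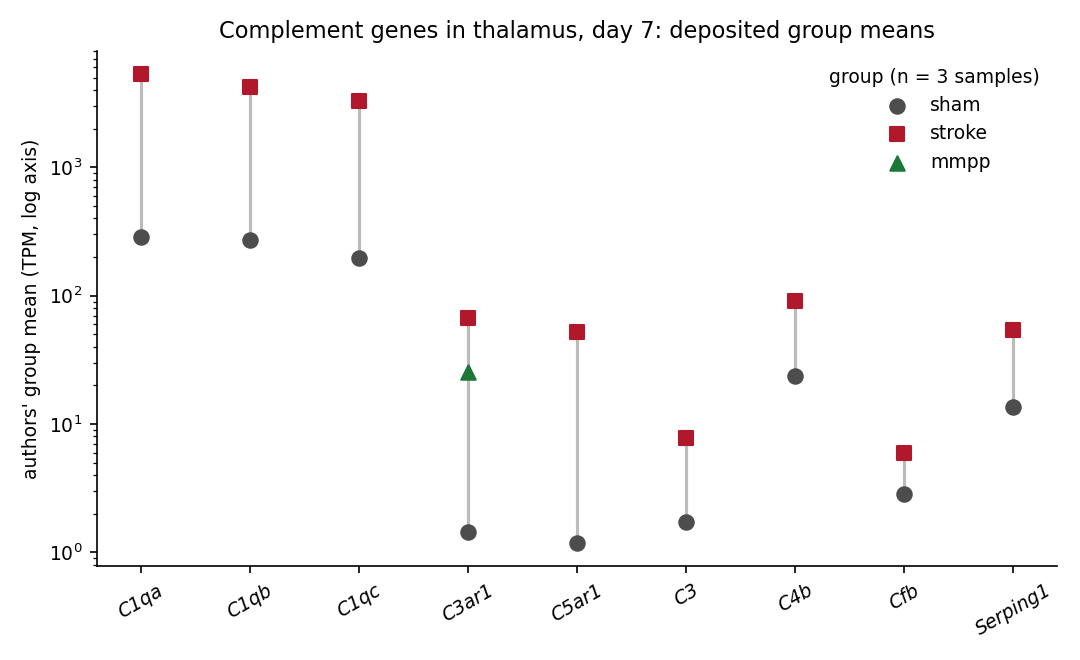
Authors' group mean of each complement gene in TPM on a log axis, with circles for sham, squares for stroke and a triangle for mmpp, which the tables give for C3ar1 alone. Every stroke mean lies above its sham mean, with C1qa, C1qb and C1qc at 3264 to 5321 TPM in stroke and the other genes at 5.96 to 90.4 TPM.

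The receptors for C3a and C5a had low sham means and the largest fold changes of the 9 genes. C3ar1 (ENSMUSG00000040552), which binds C3a, was at 1.43 TPM in sham and 66.7 TPM after stroke, a rise of 46.6-fold (q = 5.54e-21, authors' deposited table). C5ar1 (ENSMUSG00000049130), which binds C5a, was at 1.18 TPM in sham and 51.9 TPM after stroke, a rise of 43.8-fold (q = 3.05e-35, authors' deposited table). Its q-value was at rank 8 of the 4071 listed genes, the lowest of the complement genes. The TPM ratio of C3ar1 to C5ar1 was 1.21 in sham and 1.29 in stroke. The gene of C5 itself, named Hc in mouse, was not listed. The second C5a receptor gene, C5ar2, was not listed for stroke against sham either.

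The central components and the inhibitor rose less. C4b (ENSMUSG00000073418), a C4 gene, was at 23.6 TPM in sham and 90.4 TPM after stroke, a rise of 3.83-fold (q = 2.47e-13, authors' deposited table). C3 (ENSMUSG00000024164), the protein at which the pathways meet, was at 1.72 TPM in sham and 7.83 TPM after stroke, a rise of 4.54-fold (q = 1.29e-09, authors' deposited table). The TPM ratio of C4b to C3 was 13.7 in sham and 11.5 in stroke, and that of C1qa to C3 was 165 in sham and 680 in stroke. Serping1 (ENSMUSG00000023224) was at 13.6 TPM in sham and 53.7 TPM after stroke, a rise of 3.95-fold (q = 0.000108, authors' deposited table). Cfb (ENSMUSG00000090231) was at 2.85 TPM in sham and 5.96 TPM after stroke, a rise of 2.09-fold (q = 0.0348, authors' deposited table). Its log2 fold change of 1.07 lay just above the table's limit of 1, and on the scale of log2(TPM + 1) it was 0.86.

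Some of these genes share sequence with another gene. Of the distinct 50-base stretches in GENCODE M21 transcripts, 34.6% of those of C4b also occur in C4a, and 73.0% of those of Cfb occur in Gm20547. C4a was not listed. How reads that match several genes were counted is not stated, so the values of C4b and Cfb are uncertain. C1qa, C1qb, C1qc, C3, C3ar1, C5ar1 and Serping1 shared 0% of their stretches with another gene.

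**Figure D2:**
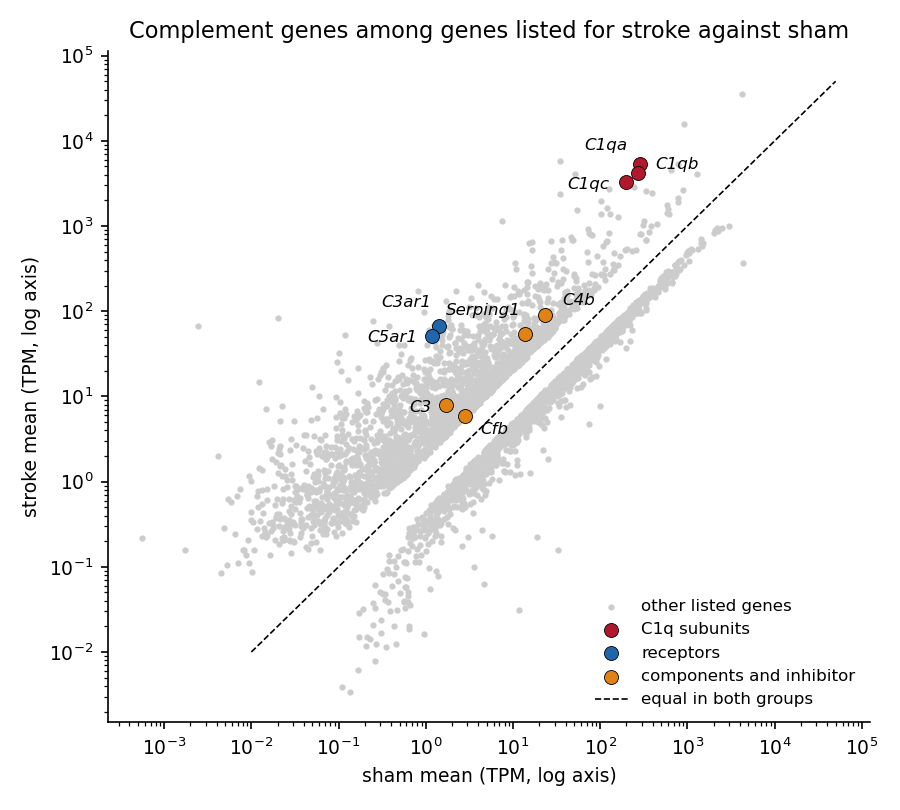
Sham mean against stroke mean in TPM, both on log axes, for genes listed in stroke against sham and detected in both groups, with complement genes coloured by role and a dashed line of equality. The C1q genes lie near the upper end of the stroke axis, C3ar1 and C5ar1 lie far above the line from sham means of 1.43 and 1.18 TPM, and Cfb lies nearest the empty band that the table's fold limit leaves around the line.

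Further complement genes were counted from a list of 45 written from textbook roles. Of these, 13 rose, beside 9.67% of all genes adjusted, 1 was listed lower without passing (Susd4), and 31 were not listed. With the fold limit applied on the scale of log2(TPM + 1), 7 of the 13 remained above it. Among the C1-associated proteases, C1ra was at 0.900 TPM in sham and 5.01 TPM in stroke (5.57-fold, q = 1.95e-05, authors' deposited table). C1s1, the other protease of C1, was at 0.700 TPM in sham and 1.95 TPM in stroke (2.79-fold, q = 0.00471, authors' deposited table). C1rb rose from 0.0209 to 0.412 TPM (q = 0.00478, authors' deposited table), and since its sham mean is near 0 no fold is given. C1ra shares 50.8% and C1rb 60.5% of their 50-base stretches with another gene, mainly each other, and C1s1 shares 21.8%, with C1s2. The TPM ratio of C1qa to C1ra was 316 in sham and 1062 in stroke.

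The integrin chains of complement receptors 3 and 4, which bind fragments of C3 on phagocytes, rose with the anaphylatoxin receptors. Itgb2, the shared beta chain, was at 6.04 TPM in sham and 138.5 TPM in stroke (22.9-fold, q = 3.23e-27, authors' deposited table). Itgax, the alpha chain of receptor 4, was at 1.44 and 34.5 TPM (23.9-fold, q = 2.57e-21, authors' deposited table). Itgam, the alpha chain of receptor 3, stands on 2 identifiers, at 3.99 and 47.4 TPM (q = 1.95e-08) and at 1.17 and 12.96 TPM (q = 0.0536, not past the limit) in the authors' deposited table. In GENCODE M21, 66.3% of the Itgam stretches also occur in Gm49368, so its reads may be split. Cd93, a phagocyte and endothelial surface protein, rose 6.55-fold (q = 5.61e-11, authors' deposited table).

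Among soluble regulators and recognition molecules, Clu, Vtn, C4bp and Mbl2 were not listed, and some others rose. Cfi, the protease that inactivates C3b, rose from 0.0379 to 0.368 TPM (q = 0.0252, authors' deposited table), from a sham mean near 0. The collectin gene Colec12 rose 4.39-fold (q = 0.000833) and the ficolin gene Fcna 2.26-fold (q = 0.0345), both from the authors' deposited table. The terminal component gene C6 and the C3b receptor gene Vsig4 were at the floor of 0.0001 TPM in sham, which stands for no detection, and at 0.204 TPM (q = 0.00554) and 0.376 TPM (q = 0.0201) in stroke in the authors' deposited table, so no fold is given. Susd4, a complement regulator expressed in neurons, was at 110.8 TPM in sham and 51.0 TPM in stroke (q = 0.0900, authors' deposited table). C2, C4a, Hc, C7, C8a, C8b, C8g, C9, Cfd, Cfp, Cd55, Cd46, Cd59a and Cr1l were also among the 31 genes not listed. Genes are absent from the table if they missed its p-value or fold limit or were never tested, so absence is not a measurement.

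**Figure D3:**
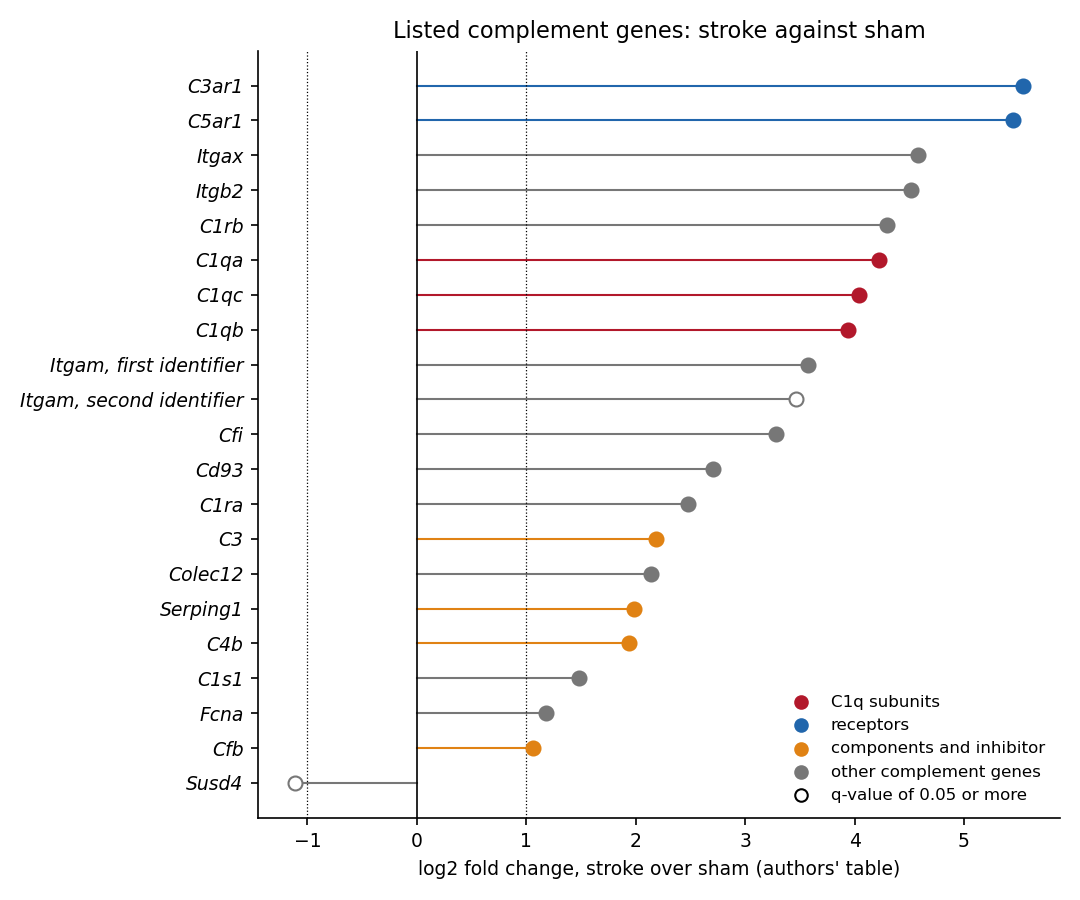
Authors' log2 fold change, stroke over sham, of the complement genes named here with a mean above the floor in both groups, coloured by role, with open circles for a q-value of 0.05 or more and dotted lines at the table's limit of 1 in each direction. C3ar1 and C5ar1 have the largest values, 5.54 and 5.45, the C1q genes lie between 3.94 and 4.22, and Susd4 is the one gene below 0. The values drawn for C1rb and Cfi rest on sham means near 0, 0.0209 and 0.0379 TPM, and are not read here.

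Marker genes of several cell types also differed between stroke and sham, some lists higher and some lower. In this bulk tissue a change in the number of cells and a change in RNA per cell cannot be told apart. The sums of TPM given for a list cover only its listed genes, so they are not the level of the whole list. Of 12 homeostatic microglia markers, 11 rose, with a median log2 fold change of 2.47 (range 1.98 to 4.23), and their summed level was 330.5 TPM in sham and 2930 TPM in stroke. Siglech was not listed. Of 10 markers of infiltrating monocytes and neutrophils, 7 were listed higher, 6 of which rose, with sums of 8.60 and 32.7 TPM, and Ly6c2, Retnlg and Mpo were not listed. Border macrophage markers had 4 of 6 risen and 1 listed lower (Lyve1), with sums of 12.2 and 62.4 TPM. F13a1, at 0.435 TPM in sham and 10.0 TPM in stroke, counts in this list and in the monocyte and neutrophil list. Astrocyte markers had 2 of 8 listed, Gfap and Aqp4, and both rose, with sums of 415.5 and 2522 TPM. Gfap alone was at 392.5 and 2453 TPM, and Slc1a3, Slc1a2, Aldh1l1, Gja1, Aldoc and S100b were not listed. Of 8 markers of fibroblasts and mural cells, 6 rose and Lum was also listed higher, with sums of 63.3 and 489.1 TPM. Choroid plexus markers had 5 of 6 listed lower, 4 of which fell, with sums of 4384 TPM in sham and 388.6 TPM in stroke. Ttr alone was at 4317 and 371.7 TPM. Thalamic neuron markers had 5 of 8 listed lower, 4 of which fell, with sums of 251.7 and 85.3 TPM. Pan-neuronal markers had 4 of 6 listed lower, 3 of which fell, with sums of 2905 and 1176 TPM. Of 6 liver-made plasma protein genes, Alb, Apoa1, Apoa2 and Serpina1a were not listed, Fgb was at 0.0333 TPM in sham and 0.675 TPM in stroke (q = 0.134, authors' deposited table), and Ttr, also a choroid plexus gene, fell. The part of any of these in the complement values was not tested.

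**Figure D4:**
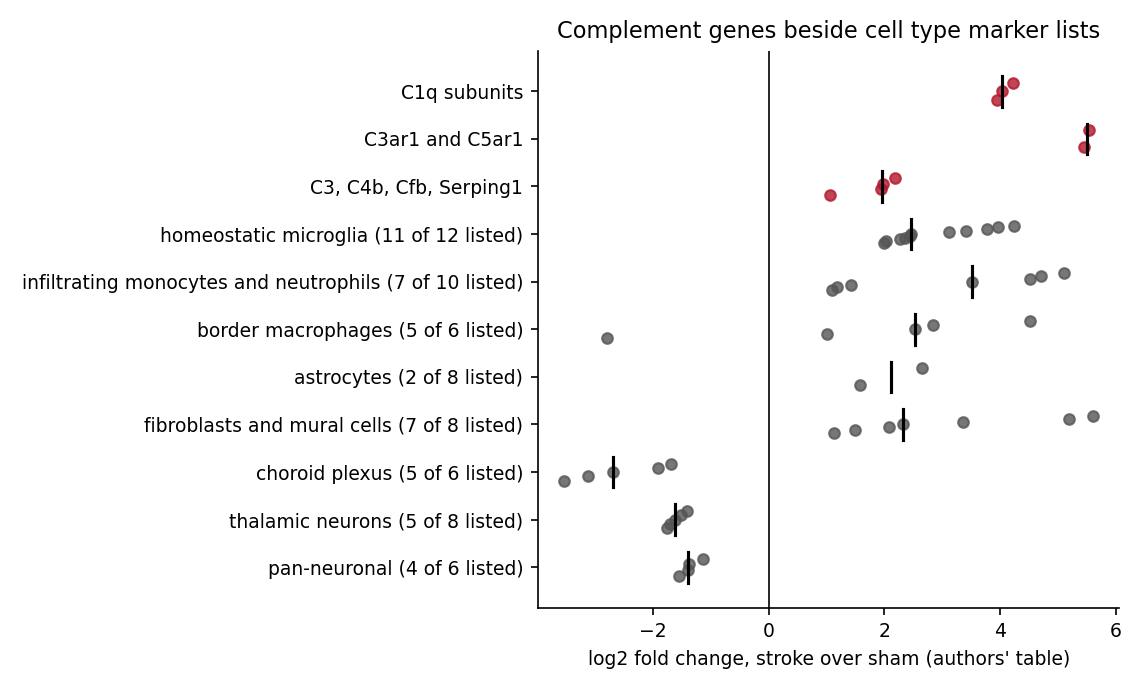
Authors' log2 fold change, stroke over sham, of single genes as points, with the median of each row as a bar, for the complement genes by role and for the listed genes of 8 marker lists. The C1q genes, at 3.94 to 4.22, lie within the range of the homeostatic microglia markers, which ends at 4.23, and C3, C4b, Cfb and Serping1 lie at 1.07 to 2.18, below the microglia median of 2.47.

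In the authors' own KEGG assignment, the pathway of complement and coagulation cascades held 29 listed genes, 8 of them among the 9 followed here, and 27 of the 29 rose, beside 49.4% of all 4071 listed genes. Pathway genes that were tested and not listed are not counted in this. The pathway was looked up after values had been seen. Of the 15 genes in it outside both complement lists, 13 rose, 1 fell (F5, a clotting cofactor) and 1 was listed higher without passing (Fgb). Among those that rose, F7, which starts clotting with tissue factor, was at 0.120 TPM in sham and 7.13 TPM in stroke (q = 7.20e-15, authors' deposited table). The urokinase gene Plau was at 1.48 and 63.7 TPM (q = 2.06e-34) and its receptor gene Plaur at 3.13 and 35.1 TPM (q = 1.06e-13) in the authors' deposited table.

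The comparison of mmpp with stroke asks whether expression differed between these groups. None of the 9 complement genes passed a q-value of 0.05, beside 0.0408% of 19616 genes adjusted that passed in either direction in the authors' deposited table, whose test program is not stated. At an unadjusted p under 0.05 and the table's fold limit, 1 of the 9 was listed, C3ar1, which was lower in mmpp, beside 3.58% of the genes adjusted. C3ar1 was at 1.43 TPM in sham, 66.7 TPM in stroke and 25.3 TPM in mmpp in the authors' deposited tables. The mmpp mean was 37.8% of the stroke mean and 17.6-fold the sham mean. The log2 fold change against stroke was -1.40, with p = 0.0339 and q = 0.772 in the authors' deposited table. Both comparisons use the same stroke samples.

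C1qa, C1qb, C1qc, C3, C4b, C5ar1, Cfb and Serping1 were not listed for mmpp against stroke, and their mmpp means were not analysed here. Where such a gene was tested, it had either a p of 0.05 or more or a mean in mmpp within a log2 fold change of 1 of stroke. This does not show that it was equal in both groups.

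Of the 45 further complement genes, 4 were listed for mmpp against stroke, on 5 identifiers, all lower in mmpp. Of all genes adjusted, 3.58% were listed lower, and 74.1% of listed genes were lower. None of the 4 passed a q-value of 0.05, beside 0.0408% of all genes adjusted. C1ra was at 5.01 TPM in stroke and 2.24 TPM in mmpp (q = 0.769, authors' deposited table). Itgam was at 47.4 and 20.1 TPM on the first identifier (q = 0.726) and at 12.96 and 4.97 TPM on the second (q = 0.720) in the authors' deposited table. Cd93 was at 15.5 and 5.27 TPM (q = 0.336, authors' deposited table). C5ar2 was at 0.158 and 0.0161 TPM (q = 0.738, authors' deposited table), both near 0. Among marker lists, 3 of 12 homeostatic microglia genes, Gpr34, P2ry13 and Sall1, were listed lower in mmpp, with sums of 87.8 TPM in stroke and 36.4 TPM in mmpp, as were F13a1 and Ccr2 of the monocyte and neutrophil list, with sums of 11.9 and 2.27 TPM. Border macrophage genes had 3 listed lower and 1 higher, with sums of 23.4 and 7.97 TPM. F13a1, at 10.0 TPM in stroke and 1.92 TPM in mmpp, counts in this list and in the monocyte and neutrophil list. Of 8 fibroblast and mural markers, Col1a1, Acta2 and Dcn were listed lower in mmpp, with sums of 289.5 and 92.1 TPM. Of 8 thalamic neuron markers, Gbx2, Plekhg1 and Slc17a6 were listed higher, with sums of 35.1 and 94.6 TPM. All these sums cover only the listed genes, each of which had to pass the table's fold limit. No astrocyte, choroid plexus, pan-neuronal or liver plasma protein marker was listed. None of these passed a q-value of 0.05, and their part in the C3ar1 value was not tested. Minus the median of the 3 listed homeostatic microglia markers, the log2 fold change of C3ar1 in mmpp against stroke was -0.17.

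The genes whose 3 group means were most like those of C3ar1 were sought among 681 other named genes in both tables, by the Euclidean distance between log2 means after each gene's own average was removed. They were Kif2c, a kinesin of the mitotic spindle, at a distance of 0.04, Plau at 0.10 and Slamf7, a leukocyte surface receptor, at 0.11. Plau was at 1.48 TPM in sham, 63.7 TPM in stroke and 23.8 TPM in mmpp in the authors' deposited tables. Kif2c was at 0.116, 5.58 and 2.04 TPM, and Slamf7 at 0.0613, 3.19 and 1.14 TPM, in the authors' deposited tables. None of the 3 passed a q-value of 0.05 for mmpp against stroke, and a likeness over 3 means is a description of these values.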

How the data were processed

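Total RNA of 9 thalamus samples was extracted with TRIzol and made into libraries with a SMARTER mRNA kit, per the labels' protocols. The genome build was GRCm39 and the tools HTSeq 0.6.0, TopHat2 2.0.12 and Bowtie2 2.2.3, per the submitters' processing notes, which give them no roles. The software behind the authors' test is not given in the sources used. Per the file headers, the authors deposited group mean TPM, a log2 fold change, and a p-value and q-value for each listed gene. The deposited log2 fold change equals the log2 ratio of the deposited TPM means, so no pseudocount was added. Every deposited row has a p-value under 0.05 and a log2 fold change of 1 or more in size, as checked on the values.

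Tables were read with pandas 2.3.3. The words rose and fell are kept for an authors' q-value under 0.05. The number of genes adjusted was taken as the smallest p-value's q-value divided by that p-value, a step tested on simulated data. Listed genes with a q-value of 1 (96 and 74) stay out of the shares of genes adjusted. Since the authors' test is not stated, which spread the p-values measure is not known. Each group had 3 samples, and the spread between them may be partly technical. The genes and lists were chosen with earlier results of these data known. Further complement genes were named where the q-value was under 0.05, and every listed one was given except 1 that is counted but not reported here. A fit of values per library, which was foreseen, was not run, since the tables analysed hold group means and the count table that the labels name was not analysed here. The alternatives were stricter and looser call limits, a rescaling of TPM, a pseudocount of 1 TPM and a reference to microglia markers. Coordinates are those of RefSeq on GRCm38.p6, which is not the build of the tables.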

Additional observations from a re-analysis of the deposited data

How the results depend on the processing

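All 9 complement genes rose for stroke against sham under the deposited limits, beside 9.67% of all genes adjusted. Of the 9, 8 had a q-value under 0.01 and 6 had a log2 fold change of 2 or more. Of the 45 further genes, 13 rose, and 7 did with a pseudocount of 1 TPM, where low genes give smaller fold changes by construction. The share of all genes at these other limits was not counted, so these counts have no background beside them. For mmpp against stroke the count of 0 became 1 of the 9 and 5 identifiers of the further list when every listed gene was counted, with no q-value limit. With a pseudocount of 1 TPM the log2 fold change of Cfb was 0.86, under the limit of 1. The TPM outside listed genes shifted by -0.17 on the log2 scale between sham and stroke. Removing it raises every stroke over sham value, so no gene that rose could lose its call. Relative to the median of the listed homeostatic microglia markers, the log2 fold change was -0.28 for C3, -0.53 for C4b, -1.40 for Cfb and -0.48 for Serping1, so these 4 rose less than that median, while C1qa (1.76), C1qb (1.48), C1qc (1.57), C3ar1 (3.08) and C5ar1 (2.99) rose more. For C3ar1 in mmpp against stroke the same reference, the median of 3 listed markers, gave -0.17 in place of -1.40. On the forward strand alone, GAGGAA was in 15.6%, the NF-kappa B pattern in 38.0% and the IRF pattern in 1.74% of promoters. No paired analysis was possible because the tables analysed here hold group means. The count table that the labels name was not analysed here, so leaving out each replicate was not run and the limit set by depth is not given.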
